A study of Mus musculus with 6 samples.

Results

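Ush1c, Brsk2, Zfp979, Rbpms, Galnt12 and Dennd2d were expressed in WT BV2 cells and had 0.639% to 6.44% of that level left in BV2 cells with SMEK1 knockdown. BV2 is a mouse microglial cell line. The 6 genes were matched by symbol among 54532 genes of the deposited count table, and they were chosen by their counts in these same libraries: high in WT, much lower in the knockdown. Their levels and fold changes are therefore a description and carry no test. All 6 were among the 12269 genes with enough reads to be tested. Brsk2, Zfp979 and Rbpms passed that filter on low counts only through the WT libraries, where they were high. Ush1c, Galnt12 and Dennd2d had enough counts in both groups.

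The study sequenced RNA from 3 libraries labelled SMEK1 knockdown (A, B and C) and 3 labelled WT (A, B and C). All were BV2 cells in serum-containing medium, and the labels name no stimulus or treatment. SMEK1 is a regulatory subunit of protein phosphatase 4, and its gene is listed as Ppp4r3a. The labels do not give the knockdown construct or say whether a group is 1 clone or a pool of cells. Nor do they say that the libraries of a group are separate cultures, and p-values then cover only the spread between these libraries, which may be technical. The labels call the second group WT, but the series design describes knockdown derivatives by codes that match both groups, and it is not stated whether WT cells carried a control construct. Library totals ran from 18036591 to 21131557 counts, and levels are given as CPM (counts-per-million, scaled between libraries by the TMM method), of which 1 count was worth 0.0444 to 0.0597. Values of single libraries are given below in the order A, B, C. The targeted gene Ppp4r3a had counts of 48, 122 and 94 (knockdown) against 335, 227 and 260 (WT), with no overlap. Microglia and macrophage markers were present in every library (14 of 14 markers with counts). Their summed level was 4026.4 to 4527.3 CPM in the knockdown and 4431.1 to 4994.0 CPM in WT. Of 12 tested, 3 were called higher and 5 lower, while 20.5% of all genes tested were called higher and 19.6% lower. Of markers that define resting microglia, P2ry12 had 3 counts and Cx3cr1 41 counts over all 6 libraries, while Tmem119 had counts of 405, 406 and 416 (knockdown) against 185, 170 and 150 (WT). Of 6 epithelial markers 1 had counts, Cldn4, with at most 0.054 CPM in a WT library and 0.0 CPM in the knockdown. The others, Epcam, Cdh1, Krt8, Krt18 and Krt19, were at 0 counts in all 6 libraries. Oligodendrocyte markers (4 of 7 with counts; Mog, Olig1 and Olig2 at 0) summed to 7.15 to 7.41 CPM in the knockdown libraries and 2.53 to 2.81 CPM in WT. Neuron markers (4 of 8 with counts; Snap25, Syt1, Map2 and Gad1 at 0) summed to 0.889 to 1.81 CPM and 0.716 to 1.08 CPM. Their part in the results was not tested.

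The 6 genes encode proteins of unrelated families. Harmonin (Ush1c) is a PDZ scaffold that ties cadherins to myosin in the stereocilia of inner-ear hair cells and in the brush border of gut epithelium. Brsk2 is a kinase of the AMPK-related family, activated by LKB1 and best known for setting the polarity of neurons. Zfp979 is named as a zinc finger protein and lies in a cluster of such genes, many of which in mouse encode KRAB repressors that recruit TRIM28 and SETDB1 to DNA. Rbpms binds RNA through an RNA recognition motif and regulates splicing in smooth muscle. Galnt12 is a Golgi enzyme that attaches the first sugar of mucin-type O-glycans to proteins. Dennd2d belongs to the DENN proteins, which switch on RAB GTPases of vesicle traffic, RAB9 in the case of the DENND2 group.

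RefSeq promoter windows of GRCm38.p6 were matched for 4 of the 6 genes, Ush1c, Brsk2, Zfp979 and Dennd2d, and not for Rbpms and Galnt12. The 250 bases before each start are printed 5′ to 3′ on the strand of the gene, because these genes were chosen for the same direction of change and their starts can be set side by side. Capitals mark matches to the motifs searched. The stretches are chr7:46238491-46238740 (minus strand), chr7:141949501-141949750 (plus strand), chr4:147642509-147642758 (minus strand) and chr3:106482181-106482430 (plus strand).
Ush1c: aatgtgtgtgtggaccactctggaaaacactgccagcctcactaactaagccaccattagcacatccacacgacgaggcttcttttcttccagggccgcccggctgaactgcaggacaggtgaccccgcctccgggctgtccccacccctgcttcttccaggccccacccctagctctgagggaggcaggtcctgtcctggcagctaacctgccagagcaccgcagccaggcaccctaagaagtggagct
Brsk2: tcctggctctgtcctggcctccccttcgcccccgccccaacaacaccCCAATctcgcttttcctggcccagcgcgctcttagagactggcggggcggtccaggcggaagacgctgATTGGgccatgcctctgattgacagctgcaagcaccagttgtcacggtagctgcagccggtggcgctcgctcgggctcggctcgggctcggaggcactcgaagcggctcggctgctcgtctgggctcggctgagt
Zfp979: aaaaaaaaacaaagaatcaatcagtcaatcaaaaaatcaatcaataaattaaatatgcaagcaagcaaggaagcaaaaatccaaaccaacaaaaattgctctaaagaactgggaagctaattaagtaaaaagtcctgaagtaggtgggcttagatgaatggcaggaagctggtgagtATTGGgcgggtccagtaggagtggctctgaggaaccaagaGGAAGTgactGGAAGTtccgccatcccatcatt
Dennd2d: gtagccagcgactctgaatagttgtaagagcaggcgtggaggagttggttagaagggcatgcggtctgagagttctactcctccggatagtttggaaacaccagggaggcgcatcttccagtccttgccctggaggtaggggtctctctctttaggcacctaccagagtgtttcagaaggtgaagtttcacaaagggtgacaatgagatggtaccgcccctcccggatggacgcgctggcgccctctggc
In windows of 300 bases (these 250 and the first 50 after the start) the share of G and C was 60.7% for Ush1c, 69.3% for Brsk2, 42.3% for Zfp979 and 58.0% for Dennd2d. The median over 32851 promoters of 27025 genes was 52.7%, with quartiles of 45.7% and 61.7%. Brsk2 had a CpG-rich start with 31 CpG (observed over expected 0.86), above the upper quartile of 0.75 over all promoters. The start of Dennd2d held 14 CpG (0.57), that of Ush1c 9 (0.33) and that of Zfp979 5 (0.38), where the median promoter had 7 (0.38). Dennd2d has 3 promoters in the RefSeq table, and the one nearest its annotated start was used.

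The motifs searched on both strands were the E-box CACGTG, the cyclic AMP response element TGACGTCA and the shorter TGACG that lies within it, the AP-1 site TGANTCA, the ETS core GGAAGT, the TATA box as TATAAA and the CCAAT box. Brsk2 held CCAAT at positions -203 and -135 from its start. Zfp979 held GGAAGT at positions -33 and -23, and CCAAT at -73. Ush1c and Dennd2d held none of them in the window, which says only that these letters are not there. GGAAGT is found in 23.8% of all promoters of this length and CCAAT in 37.4%. CACGTG occurs in 7.15% of them, TGACGTCA in 1.79%, TGACG in 20.8%, TGANTCA in 7.81% and TATAAA in 13.6%. No motif was found in all 4 promoters, and the matches describe letters only.

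Ush1c had by far the most reads of the 6. Its counts were 171, 188 and 204 (knockdown) against 3808, 3874 and 3673 (WT). The WT libraries were all high and close together, and the knockdown libraries were all low and did not approach them. The mean level was 8.83 ± 0.44 CPM (SD, n = 3) in the knockdown and 217.6 ± 12.9 CPM (SD, n = 3) in WT, so 4.06% of the WT level was left. The log2 fold change was -4.62, or 24.6-fold lower (95% counting interval 22.6 to 26.8). Even its lowest knockdown library held more reads than any knockdown library of the other 5 genes. Intervals here and below cover counting error only. In RNA from bulk cultures, fewer cells expressing a gene and less RNA per cell cannot be told apart. Ush1c (ENSMUSG00000030838) is annotated at 46195350 to 46238503 of chromosome 7, minus strand (GRCm38), with 9 annotated transcripts in GENCODE M21.

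Brsk2 was close to undetected in the knockdown. The kinase gene had 0, 0 and 1 counts (knockdown) against 43, 48 and 32 (WT). Every WT library held at least 32 reads and the knockdown libraries held 1 read among them. A count of 0 allows up to 3 counts, or 0.157 CPM in knockdown A and 0.133 CPM in knockdown B. Per sequencing effort the WT sum of 123 counts was 150.1 times the knockdown sum of 1 count, with a 95% counting interval of 26.4 to 5975.3. The upper end is loose because it rests on 1 read. The WT mean was 2.36 ± 0.492 CPM (SD, n = 3), so Brsk2 was a low-abundance transcript in WT too. Brsk2 (ENSMUSG00000053046) is annotated at 141949751 to 142004247 of chromosome 7, plus strand, with 17 transcripts.

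Zfp979 was the least evenly measured. It had 2, 0 and 1 counts (knockdown) against 53, 24 and 21 (WT). WT A stood above the other WT libraries, and all 3 stood above the knockdown. The ratio of the WT sum of 98 counts to the knockdown sum of 3 was 39.9 at equal depth (95% counting interval 13.2 to 196.6). The WT mean was 1.84 ± 0.887 CPM (SD, n = 3), a coefficient of variation of 48.1%, the widest of the 6. Of the 50-base stretches of its transcripts 27.1% are also found in transcripts of other genes (22 genes). Zfp600 and Rex2, which share the most, had 0 counts in all libraries, and Zfp978 had 1. Zfp979 (ENSMUSG00000066000) is annotated at 147611937 to 147642513 of chromosome 4, minus strand.

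Rbpms was the most even in WT. This splicing regulator had 10, 18 and 7 counts (knockdown) against 182, 163 and 170 (WT). The WT levels ran from 9.73 to 10.0 CPM, and the knockdown levels were all under 1 CPM. Mean levels were 0.546 ± 0.243 CPM (SD, n = 3) in the knockdown and 9.85 ± 0.141 CPM (SD, n = 3) in WT. The log2 fold change was -4.15, with 5.54% of the WT level left. The ratio of summed counts at equal depth was 18 (95% counting interval 12.7 to 26.1). Rbpms (ENSMUSG00000031586) spans chromosome 8 from 33782643 to 33929863 on the minus strand, with 15 transcripts, and 0.151% of its 50-base stretches are shared with other genes.

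Galnt12 had 12, 24 and 15 counts (knockdown) against 215, 241 and 229 (WT). Knockdown B was the highest of the low group for Galnt12, as it was for Rbpms, and still far below WT. Mean levels were 0.79 ± 0.24 CPM (SD, n = 3) in the knockdown and 13.2 ± 1.42 CPM (SD, n = 3) in WT. The log2 fold change was -4.03, which is 16.4-fold lower (95% counting interval 12.3 to 22.2) and leaves 6.01% of the WT level. None of its 50-base stretches occurs in a transcript of another gene. Galnt12 (ENSMUSG00000039774) is annotated at 47091909 to 47123070 of chromosome 4, plus strand, with 2 transcripts.

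Dennd2d was the least lowered of the 6. The counts of this RAB activator were 47, 53 and 76 (knockdown) against 677, 778 and 766 (WT). Knockdown C was the highest of the low group, still far under the lowest WT library. Mean levels were 2.75 ± 0.596 CPM (SD, n = 3) in the knockdown and 42.7 ± 5.37 CPM (SD, n = 3) in WT. The log2 fold change was -3.95, with 6.44% of the WT level left, and the ratio of summed counts at equal depth was 15.4 (95% counting interval 13.2 to 18.1). Dennd2d (ENSMUSG00000027901) is annotated at 106482405 to 106503030 of chromosome 3, plus strand, with 6 transcripts. It shares 771 exonic bases with Cept1 and 407 with 2010016I18Rik, genes on the opposite strand, which is 11.2% and 5.93% of its exonic bases, and 14.9% of its 50-base stretches are found in transcripts of these 2 genes. The use of strand in counting was not stated, and reads of these stretches cannot be told apart.

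**Figure D1:**
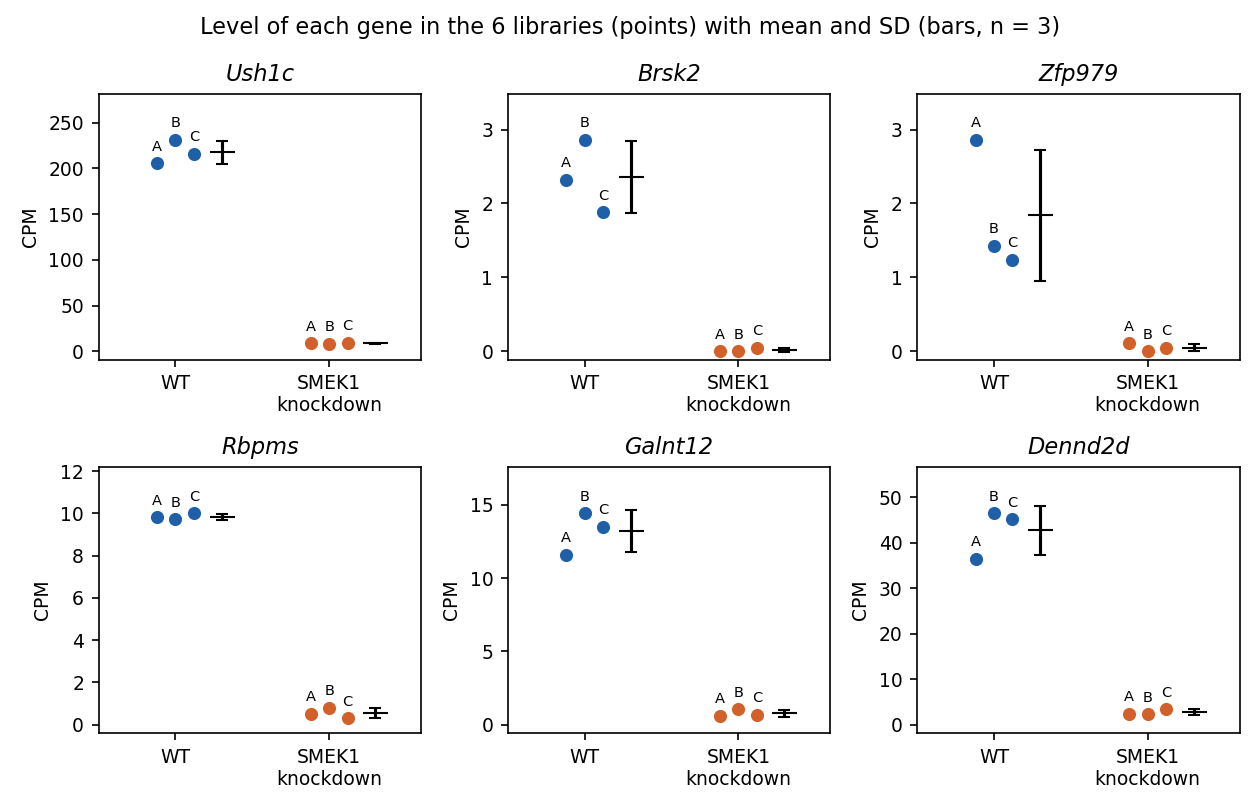
Level of each of the 6 genes in CPM (linear axes from 0, a scale per panel) in the 3 WT and 3 knockdown libraries, 1 point per library, with the mean and SD beside each group. In every panel the 3 WT libraries lie above the 3 knockdown libraries; Ush1c has 171 to 204 counts left in the knockdown, while Brsk2 has 0, 0 and 1.

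For all 6 genes the highest knockdown library was below the lowest WT library. The same order held for 2980 of the 12269 genes tested (24.3%), and since the 6 were chosen on this contrast nothing is read from that comparison. Levels can be compared between genes only per length, for which the deposited FPKM were used. In WT, Ush1c was highest at 56.4 ± 3.24 FPKM (SD, n = 3). Dennd2d followed at 6.2 ± 0.766 FPKM and Galnt12 at 5.73 ± 0.606 FPKM, and the WT libraries of this pair overlapped. Rbpms came next at 1.5 ± 0.0211 FPKM. Zfp979 at 0.447 ± 0.216 FPKM and Brsk2 at 0.38 ± 0.0792 FPKM were lowest, and their libraries overlapped too. In the knockdown Ush1c still had 2.27 ± 0.14 FPKM, a level per length above that of Rbpms in WT. Dennd2d (0.396 ± 0.087 FPKM) and Galnt12 (0.341 ± 0.0982 FPKM) again overlapped in the knockdown.

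Ranked by fold change among all genes tested, Brsk2 was the second most lowered (rank 2), Zfp979 had rank 6, Ush1c rank 8, Rbpms rank 14, Galnt12 rank 17 and Dennd2d rank 20. The fitted values behind the ranks of Brsk2 and Zfp979 depend on the prior count. Another 14 genes were lowered as much as Dennd2d or more, of which 12 had a WT mean of at least 1 CPM. Tspan7, which encodes a tetraspanin, had 0, 1 and 0 counts (knockdown) against 51, 32 and 64 (WT), a ratio of 179.4 at equal depth (95% counting interval 31.7 to 7131.9). Others were genes of the interferon response and of inflammation: Rtp4 had a log2 fold change of -5.25, complement C3 of -4.45, the interferon regulator Irf7 of -4.44 and the acute-phase gene Saa3 of -4.01. Traf1, an adaptor of TNF receptors, had 2 knockdown counts against 54, a ratio of 32.9 (interval 8.69 to 279.0). The remaining named genes had changes of -4.31 to -4.0: Ifi203 (-4.31), Klk1b27 (-4.24), Ly6a (-4.15), Fam213a (-4.04) and Abcg2 (-4.0). Just outside the value of Dennd2d lay Cyp2c66 at -3.94, Marcks at -3.89 and Isg15 at -3.79. No gap in fold change separates the 6 from the next genes.

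**Figure D2:**
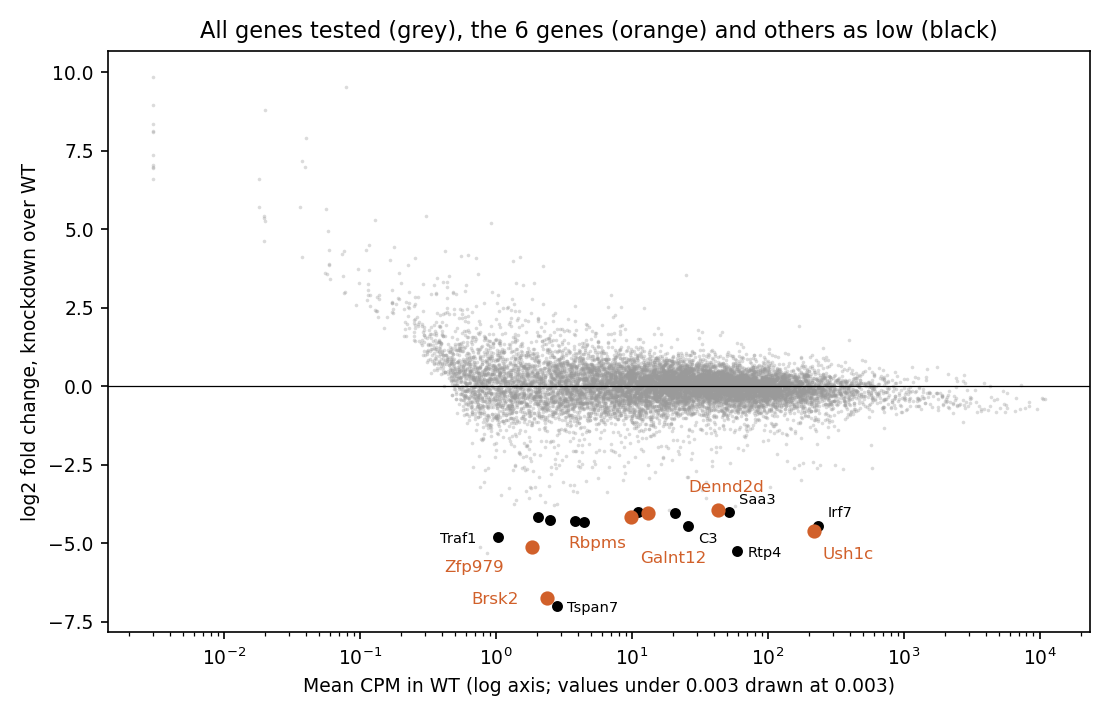
Log2 fold change of knockdown over WT against the mean WT level in CPM (log axis) for the 12269 genes tested. The 6 genes (orange) lie between -6.74 and -3.95 on the vertical axis, among 12 other genes with a WT mean of at least 1 CPM that are lowered as much (black, 6 of them labelled).

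The library-by-library pattern of each gene was set beside that of all other genes tested with a mean of at least 1 CPM, as the Euclidean distance between log2 CPM values (prior count 2) centred on the gene's own mean over the 6 libraries. This measure mostly reads the size of the difference between groups, and it is a description. Dennd2d had the closest match of the 6, Saa3 at 0.23. For Ush1c the nearest were Irf7 (0.44) and C3 (0.53), for Brsk2 Saa3 (0.70) and Irf7 (0.82), and for Galnt12 Isg15 (0.43) and Fam213a (0.54). The nearest to Rbpms were Isg15 (0.49) and C3 (0.64). Zfp979 had no close match, with Ifi203 (0.87) and Vipr1 (0.98) nearest. Among the 6 themselves, Rbpms and Galnt12 (0.56) and Ush1c and Brsk2 (0.58) were closest and Ush1c and Zfp979 (1.66) farthest apart. The prior count shrinks the difference of low genes, and with it the distances of Brsk2.

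The genes around the 6 were examined next, since their values were not used to choose the 6. Within 200 kb, 91 other genes are annotated, of which 47 had no count in any library and 20 had enough counts to be tested with edgeR's quasi-likelihood test (Benjamini-Hochberg adjustment over the 12269 genes, called at an adjusted p under 0.05). Of these 20, 5 fell (25%) and 2 rose (10.0%). Over all genes tested 19.6% were called lower, 20.5% higher and 40.1% in either direction, while scaling by library totals instead of TMM gave 5 neighbours that fell and 5 that rose. The share that fell around the 6 genes was near that of all genes, and the share that rose was lower. With 20 genes, and a number of rises that changes with the scaling, no difference is read from these shares. Among the 16 that reached the level of the filter in every library of both groups, 3 fell and 1 rose. The median log2 fold change of the 20 was 0.00, and that of all genes 0.01. Of the genes within 200 kb that reached that level in both groups, Abcc8 had the largest fall, 0.83 log2 units. Within 500 kb, 16 of 67 tested genes fell (23.9%) and 10 rose (14.9%). Between 200 and 500 kb the largest fall was that of Saa3, 473.5 kb from Ush1c, with a log2 fold change of -4.01.

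At Dennd2d, the 2 tested genes closest to its start had far fewer counts in the knockdown. Both passed the filter on low counts only through the WT libraries, where they were high, so their values are given with no test as support. 2010016I18Rik, a non-coding transcript on the opposite strand across the start of Dennd2d (106481982 to 106485913), had 5, 4 and 3 counts (knockdown) against 55, 23 and 34 (WT). Its level was low in every knockdown library and highest in WT A, and the log2 fold change was -3.45. It shares 407 exonic bases with Dennd2d, 11.0% of its own, and reads of these bases cannot be told apart. Gm38244, a transcript model on the same strand that ends 1537 bases before Dennd2d begins, had 0, 1 and 0 counts in the knockdown libraries and 25, 11 and 10 in WT (log2 fold change -5.31). It lies outside the rule for named genes and was chosen after its values were seen. With 1 count against 46 that fold change depends on the prior count, and the ratio was 56.1 at equal depth (95% counting interval 9.58 to 2264.5). At the other end Cept1, an enzyme of phospholipid synthesis whose last bases overlap those of Dennd2d, had 350, 409 and 343 counts in the knockdown and 365, 307 and 326 in WT (log2 fold change -0.14, SE 0.12, adjusted p = 0.39). Farther out Dram2, which acts in autophagy (log2 fold change 0.36, adjusted p = 0.0634, and 0.0287 without knockdown A), and Lrif1 (0.13, adjusted p = 0.767) were not called.

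Next to Ush1c, Abcc8 fell. This gene encodes the sulfonylurea receptor, the regulatory subunit of ATP-sensitive potassium channels, and it lies on the same strand 15317 bases beyond the 3′ end of Ush1c. Its counts were 2165, 2555 and 2535 (knockdown) against 3949, 3249 and 3388 (WT). Levels averaged 113.7 CPM against 202.2 CPM in WT and did not overlap, with a log2 difference of -0.83 (SE 0.07, adjusted p = 6.45e-06), far smaller than that of Ush1c. Kcnj11, which encodes the pore of the same channel and lies 94.6 kb away, had too few counts to be tested, with 0, 0 and 1 in the knockdown libraries and 5, 7 and 6 in WT. It is not under the rule for named genes and was chosen after its values were seen. Nomo1, beyond it, had a change of -0.19 (adjusted p = 0.0571, and 0.0276 without knockdown A). On the 5′ side Otog, 2.48 kb away, had 1 count over all 6 libraries.

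Around Brsk2, 2 of 3 tested neighbours were called higher and none lower by edgeR (all genes tested: 20.5% higher and 19.6% lower). With DESeq2 0 of the 3 were called. Tollip, an adaptor of toll-like receptor signalling 31244 bases upstream, rose by 0.26 log2 units (SE 0.09, adjusted p = 0.0376), from 67.4 to 80.8 CPM. It was not called without WT A (adjusted p = 0.123), WT B (0.0621), WT C (0.0608), knockdown A (0.0789) or knockdown C (0.0566). Dusp8, a phosphatase of JNK and p38 kinases 75243 bases downstream, had 20, 29 and 18 counts in the knockdown and 10, 4 and 7 in WT, a log2 fold change of 1.38. It passed the filter on low counts only through the knockdown, where it was high, so its call is no support, and it was not called without knockdown B (adjusted p = 0.0686), WT B (0.0748) or WT C (0.0618). Mob2, which lies 4288 bases beyond the end of Brsk2, stood at 66.1 CPM against 56.9 CPM in WT (log2 fold change 0.22, adjusted p = 0.0543, and 0.043 without knockdown B). Tollip and Mob2, on either side, had 64.6 CPM or more in every knockdown library, where Brsk2 had 1 read in all.

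Rbpms had 6 tested neighbours, of which 2 fell (19.6% of all genes tested fell), both far from it. Gsr, glutathione reductase, lies 84480 bases downstream and fell by 0.56 log2 units (SE 0.12, adjusted p = 0.00249), from 87.2 to 59.2 CPM. Ppp2cb, a catalytic subunit of protein phosphatase 2A, lies 163202 bases downstream and fell by 0.45 (SE 0.09, adjusted p = 0.00177), from 94.7 to 69.2 CPM. The nearest neighbour, Gtf2e2, a subunit of the general transcription factor TFIIE 5470 bases downstream, stood at 21.8 CPM against 20.0 CPM in WT (log2 fold change 0.13, adjusted p = 0.438). Upstream, the dynactin gene Dctn6 at 160557 bases had a change of -0.11 (adjusted p = 0.454). Galnt12 had 1 tested neighbour, the collagen gene Col15a1 at 85091 bases downstream, with overlapping groups (log2 fold change 0.33, SE 0.23, adjusted p = 0.283). Zfp979 had 3, of which 0 were called by edgeR, DESeq2 or limma-voom and 0 had an unadjusted p under 0.05. Zfp984, 111461 bases upstream, had 2, 32 and 17 counts in the knockdown and 16, 4 and 11 in WT, with wide overlap (log2 fold change 0.41, adjusted p = 0.653).

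**Figure D3:**
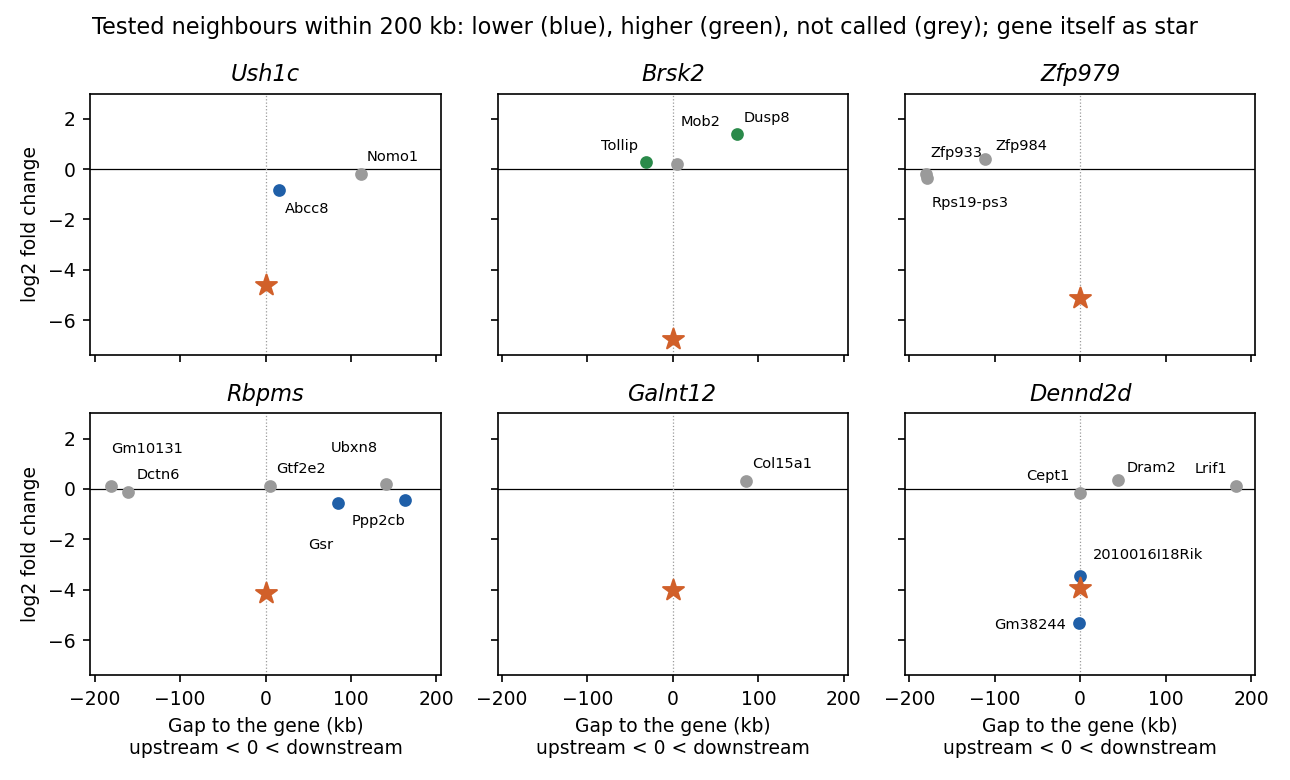
Log2 fold change of each tested neighbour within 200 kb against its gap to the gene in kb (upstream below 0, downstream above 0), 1 panel for each of the 6 genes, which are drawn as stars. Most neighbours lie near 0. The exceptions near a star are 2010016I18Rik (-3.45) and Gm38244 (-5.31) at Dennd2d. Some exonic bases of 2010016I18Rik are shared with Dennd2d, and reads of these cannot be told apart.

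Over wider regions the shifts were small. Within 5 Mb of each gene the median log2 fold change of the other tested genes was -0.15 around Ush1c (103 genes), 0.06 around Brsk2 (80 genes), -0.11 around Zfp979 (84 genes), -0.01 around Rbpms (23 genes), 0.04 around Galnt12 (60 genes) and -0.09 around Dennd2d (76 genes). Around Zfp979 31.0% and around Ush1c 30.1% of these genes were called lower, more than the 19.6% of all genes, and around Rbpms 13.0%. These shares were not tested.

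Relatives of the 6 genes by pathway were followed in 6 lists with 88 tested members. Of these, 19 fell (21.6%), 15 rose (17.0%) and 54 were not called, against 19.6% and 20.5% of all genes. The median log2 fold change was -0.02. With library totals in place of TMM, 9 fell and 22 rose with a median of 0.14, while over all genes 1568 fell and 3893 rose. The largest fall of a tested relative was that of Mbnl2 at -1.21. None reached the -3.95 of Dennd2d, but among all 12269 genes tested only 14 others did. The 6 were chosen for their large falls, so nothing is read from this difference.

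Of 16 other genes of the harmonin and Usher network 5 had no count and 4 could be tested. Of these 1 fell, where 19.6% of all genes tested fell. Myo7a, the myosin that harmonin anchors, had 144.4, 133.8 and 129.8 CPM (knockdown) against 174.4, 168.5 and 175.5 CPM (WT). It fell by 0.35 log2 units (SE 0.08, adjusted p = 0.0034). Its cadherin partner Cdh23 was at 3.73 and 3.69 CPM (adjusted p = 0.971), and the scaffold Whrn was at 12.4 and 13.2 CPM (adjusted p = 0.652). Ush1g, another scaffold of the complex, was below the filter with 5, 4 and 5 counts in the knockdown and 0 in each WT library. Pcdh15, the cadherin that pairs with Cdh23, had 0 counts in all libraries.

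In the list of LKB1, AMPK and related kinases 9 of 21 tested genes rose and 4 fell, with a median of 0.14. Of all genes tested, 20.5% rose and 19.6% fell, and no difference from these shares was tested. The closest relative of Brsk2, Brsk1, had 1 count over all 6 libraries. Among the related kinases Nuak1 rose by 1.34 log2 units (SE 0.20, adjusted p = 0.000307), from 2.35 to 5.97 CPM, and Sik3 fell by 0.76 (SE 0.08, adjusted p = 2.16e-05), from 73.5 to 43.4 CPM. Stradb, a pseudokinase partner of LKB1, rose by 0.75 (SE 0.16, adjusted p = 0.00295), from 7.66 to 12.9 CPM. Stk11, which encodes LKB1 itself, stood at 146.8 CPM against 138.3 CPM in WT (adjusted p = 0.413). Prkaa2, a catalytic subunit of AMPK, fell by 0.83 (SE 0.27, adjusted p = 0.0276), a call that did not hold without WT A (adjusted p = 0.1), WT C (0.0513), knockdown A (0.0884) or knockdown C (0.114). The falling members numbered 2 without knockdown C, without WT C and with library totals. The rising members numbered 7 with a replicate block and 10 with library totals.

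Of 11 genes of KRAB zinc finger silencing, all tested, 5 fell and 1 rose, with a median of -0.20. Of all genes tested, 19.6% fell and 20.5% rose, and no difference from these shares was tested. The fall of Smarcad1, a chromatin remodeller, was 0.88 log2 units (SE 0.17, adjusted p = 0.00188), from 11.1 to 6.03 CPM. Fam208a, which encodes the HUSH subunit TASOR, fell by 0.95 (SE 0.30, adjusted p = 0.0253), a call that did not hold without WT A (adjusted p = 0.0541), WT C (0.117), knockdown A (0.0804) or knockdown C (0.0869). Morc2a, which acts with HUSH, rose by 0.59 (SE 0.14, adjusted p = 0.00516), from 26.3 to 39.5 CPM. Trim28 and Setdb1, the core of the silencing complex, were among the 5 that fell, Setdb1 by 0.57 (adjusted p = 0.001) and Trim28 by 0.29 (adjusted p = 0.0113). The call of Trim28 did not hold without knockdown C (adjusted p = 0.0703) or WT C (0.0521), with library totals (0.0998) or with a replicate block (0.064). The falling members numbered 2 without knockdown C and 3 without knockdown A, WT A or WT C. With library totals in place of TMM, 2 fell and 2 rose. Among the 17 Zfp genes within 5 Mb of Zfp979, 10 had no count, and 5 could be tested. Of these, 0 were called by edgeR, DESeq2 or limma-voom, and 0 had an unadjusted p under 0.05.

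Among 14 tested RNA-recognition-motif and related splicing regulators 2 fell and 1 rose, with a median of -0.02 (all genes tested: 19.6% fell and 20.5% rose). Rbpms2, the paralogue of Rbpms, stood at 1.46 CPM against 1.06 CPM in WT, with overlapping groups (log2 fold change 0.46, SE 0.42, adjusted p = 0.4). The fall of Mbnl2, a muscleblind splicing factor, was 1.21 log2 units (SE 0.26, adjusted p = 0.00298). Its levels were 4.34, 8.35 and 6.01 CPM (knockdown) against 19.2, 10.8 and 13.3 CPM (WT). Ptbp1 fell by 0.24 (adjusted p = 0.0287), a call that did not hold without knockdown B (adjusted p = 0.109), knockdown C (0.0896), WT B (0.0779) or WT C (0.104). Celf1 rose by 0.31 (adjusted p = 0.021), a call that did not hold without knockdown B (adjusted p = 0.0578), WT B (0.0658) or WT C (0.0578). Without WT B, WT C or knockdown C, and with library totals, 1 of the list fell; with library totals 3 rose.

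In mucin-type O-glycosylation 3 of 15 tested genes rose and 3 fell (all genes tested: 20.5% rose and 19.6% fell). The median was 0.00, or 0.16 with library totals, where 4 rose and 1 fell. Galnt6, a transferase of the same step as Galnt12, had 246.6, 214.9 and 209.1 CPM (knockdown) against 114.6, 121.2 and 118.7 CPM (WT). It rose by 0.92 log2 units (SE 0.08, adjusted p = 7.61e-06). Per length its WT level was 30.4 FPKM, above the 5.73 FPKM of Galnt12. Galnt10 rose by 0.41 (SE 0.10, adjusted p = 0.00534), and Galnt3 fell by 0.75 (SE 0.19, adjusted p = 0.00905), from 16.6 to 9.83 CPM. The call of Galnt3 did not hold with library totals (adjusted p = 0.0567). St3gal1, a sialyltransferase that caps these glycans, fell by 0.54 (SE 0.11, adjusted p = 0.002). The paralogues Galnt1 (log2 fold change 0.21, adjusted p = 0.276) and Galnt4 (-0.20, adjusted p = 0.55) were not called.

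Of 23 tested genes of DENN proteins and RAB9, 4 fell and 1 rose (all genes tested: 19.6% fell and 20.5% rose). The median was -0.10, or 0.06 with library totals, where 2 fell and 3 rose. The nearest relatives of Dennd2d overlapped between groups: Dennd2a was at 30.8 and 33.0 CPM (log2 fold change -0.10, SE 0.13, adjusted p = 0.571) and Dennd2c at 9.32 and 7.49 CPM (0.32, SE 0.19, adjusted p = 0.214) in knockdown and WT. St5, which encodes DENND2B, rose by 0.62 (SE 0.19, adjusted p = 0.0212), a call that did not hold without WT B (adjusted p = 0.0563), WT C (0.0889) or knockdown C (0.0681). Rab9, which encodes the GTPase that DENND2 proteins act on, was at 32.0 and 28.5 CPM (adjusted p = 0.314). Sbf2 fell by 0.73 (SE 0.21, adjusted p = 0.0138). Its call did not hold without WT C (adjusted p = 0.0554), with library totals (0.0763) or with a replicate block (0.0594). Fam45a fell by 0.70 (SE 0.20, adjusted p = 0.0148), a call that did not hold without knockdown C (adjusted p = 0.0592) or WT A (0.0583).

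**Figure D4:**
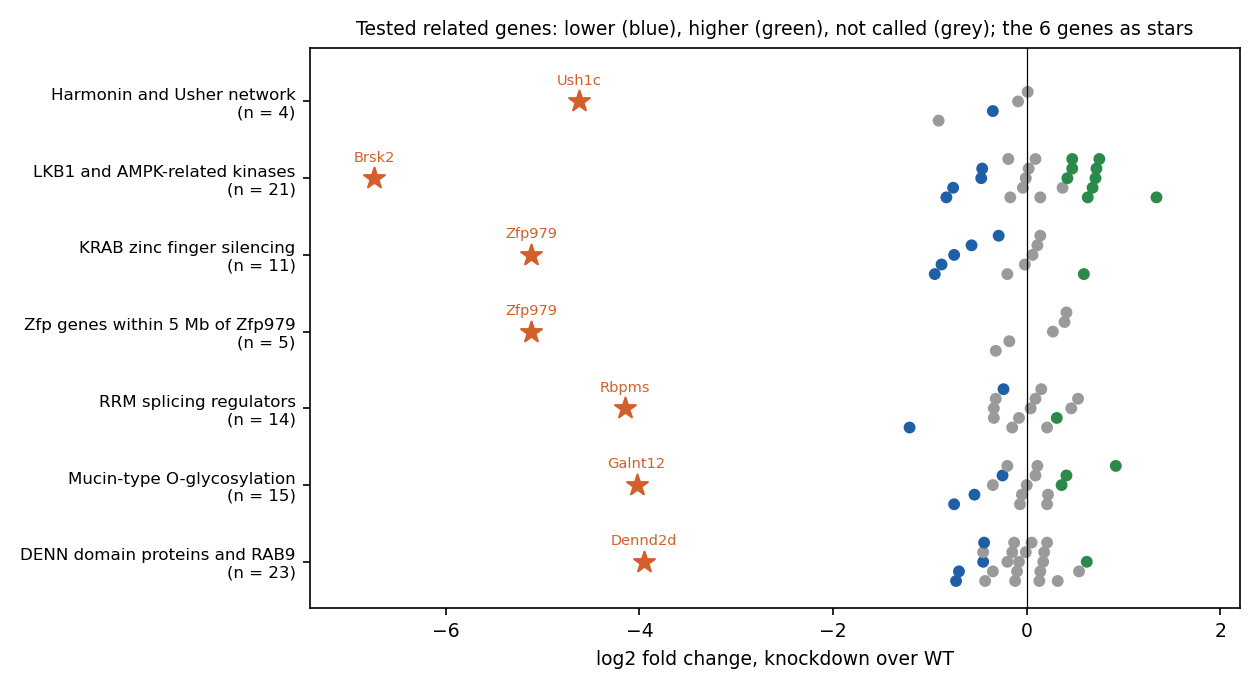
Log2 fold change of knockdown over WT for the tested members of the 6 related lists and the Zfp genes near Zfp979 (1 row each; points, blue for lower, green for higher, grey for not called) and for the 6 genes themselves (stars). The relatives lie between -1.21 and 1.34, and every star lies at -3.95 or below. The 6 genes were chosen for large falls, so nothing is read from the distance between stars and points.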

How the data were processed

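RNA-seq of 3 SMEK1 knockdown and 3 WT libraries was analysed, grouped by the genotype label. The authors deposited whole-number counts per gene and FPKM, which equal the count divided by gene length and a constant of each library. Per the labels' protocols, libraries were made from column-purified total RNA with a SMARTER mRNA kit. The build is GRCm38 (mm10) per the submitters' processing notes; the aligner, counting program and its use of strand were not given in the sources used here.

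Counts were tested in R 4.3.3 with edgeR 4.0.16 (filterByExpr, TMM, glmQLFit, glmQLFTest, no covariates), with Benjamini-Hochberg adjustment over 12269 genes and an adjusted p under 0.05. All adjusted p-values come from this test. CPM are TMM-scaled, fold changes are knockdown over WT in log2, and SE is their size over the root of the F statistic. Ratios of summed counts carry exact 95% counting intervals at equal effective depth. The script was checked on simulated counts, where 51.5% of 1.5-fold, 68.8% of 2-fold and 100% of 4-fold changes were called. Of 153 calls there, 9 were false. A gene that was not called may therefore still differ, at times by 2-fold. The simulation gave 153 calls where the data gave 4918, so its rates need not hold for the data.

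The 6 genes and all lists were chosen with earlier results of these data known. Named genes are the 6, the targeted gene, the nearest tested neighbour on each side, overlapping and called neighbours, the 2 largest rises and 2 largest falls called in each list, close paralogues, the 3 nearest patterns, and the 10 most lowered other genes; predicted genes are named only where they overlap a member. Other genes are named for their role or place, after their values were seen. Proteins were not analysed here. The 14 alternatives were DESeq2 1.42.0 size factors, upper-quartile scaling and plain library totals instead of TMM, filters of 1 count in any library or 1 CPM in 3 libraries, DESeq2, limma-voom (limma 3.58.1), a replicate block, and leaving out each library; windows of 100 and 500 kb were also tried.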

Additional observations from a re-analysis of the deposited data

How the results depend on the processing

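No alternative reversed any of the 6 fold changes. Over 14 alternatives the log2 fold change ran from -4.67 to -4.46 for Ush1c, -4.53 to -3.86 for Rbpms, -4.29 to -3.87 for Galnt12 and -4.14 to -3.79 for Dennd2d. The few reads of Brsk2 (-8.47 without knockdown C, which holds its only knockdown read, to -6.11 with limma-voom) and Zfp979 (-6.01 without knockdown A to -4.53) gave wider ranges. Library totals in place of TMM moved the median of all genes by 0.159, to 3893 genes called higher and 1568 lower (2515 and 2403 with TMM). Higher neighbours within 200 kb, 2 with TMM, numbered 1 with DESeq2 size factors, 5 with library totals, 0 with DESeq2, and 0 to 2 leaving out a library. Within 500 kb 10 were higher and 16 lower; lower neighbours within 200 kb numbered 5 to 6 leaving out a library. Lower related genes (19) numbered 9 with library totals and 11 to 18 leaving out a library, with 11 without knockdown C and 12 without WT C. Other genes as low as Dennd2d numbered 6 with a WT mean of at least 5 CPM and 12 with at least 1 CPM. Nothing in the labels says whether the letters A, B and C pair the libraries. Deviations of same-letter libraries correlated at -0.361, -0.326 and 0.002, and those of different-letter libraries at -0.129 to 0.412. These values cannot decide it, because the deviations were taken from each group's own mean and constrain each other. A replicate block gave 0 higher neighbours and 10 lower related genes. Depth limits Brsk2 and Zfp979, at 1 and 3 knockdown counts, and left 24 neighbours with counts untested.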
